A study of Rattus norvegicus with 134 samples.

Results

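The miR-23, miR-27 and miR-24 miRNA were measured by small RNA sequencing in heart, kidney and liver of heat-stressed and control rats. Every name of the deposited table for miR-23a, miR-23b, miR-27a, miR-27b or miR-24 was taken, with any copy number or arm and whatever its values, which gave 9 of 185 names. Of these, 6 name a mature arm, namely rno-miR-23a-3p, rno-miR-23b-3p, rno-miR-27a-3p, rno-miR-27b-3p, rno-miR-24-3p and rno-miR-24-2-5p. The other 3, rno-miR-23a, rno-miR-23b and rno-miR-27b, name no arm, and which reads they hold is not stated in the sources used here.

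The rats were of the Fischer 344 strain, with no transgene or mutant allele named. Heat-stressed rats were kept in an incubator at 37.0 °C until the core temperature reached 41.8 °C, the point called Tc,max. They were killed then, or after 24 h or 48 h of recovery at 22 °C, and controls were killed at matching times. By the sample labels the controls were never in the incubator, whereas the methods of the study describe controls in an incubator at room temperature. Lesions of heart and kidney were seen by histology in some of the rats killed last, but the labels do not say in which, so that all heated rats of a time formed a single group. The 77 libraries came from 37 rats. The heart had 5 control and 6 heated libraries at Tc,max, 6 and 6 at 24 h, and 6 and 6 at 48 h. The kidney had 5 and 5, 4 and 6, and 5 and 4 at these times. The liver had 6 and 6 at Tc,max and 1 control at 24 h, which entered no test. Each tissue was a bulk sample, so that fewer cells of a type and less of a miRNA per cell cannot be told apart. Tissues were sequenced apart and the heart was homogenised in another way, so that tissue and preparation cannot be told apart either.

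In mammals these miRNA are made from a pair of gene clusters that arose by duplication, each holding 1 gene of the miR-23, miR-27 and miR-24 kind in a row on 1 primary transcript. The mature strand is loaded into Argonaute and pairs through its seed, bases 2 to 8, with sites in messenger RNA, whose translation and stability it lowers. In mice miR-23 and miR-27 promote the sprouting of blood vessels by repressing Sprouty2 and Sema6A, and miR-24 is enriched in cardiac endothelium, where it represses GATA2 and PAK4. miR-23a is known from mouse heart for hypertrophic growth through MuRF1, a ubiquitin ligase of muscle, and miR-27 for repressing PPARγ in fat and liver cells.

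The mature sequences are shown because the a and b forms share a seed and can hardly be told apart by short reads. All 6 named arms were found in the RefSeq miRNA table of GRCr8, all on the minus strand, and the seed is in capitals.
rno-miR-23a-3p, chr19:40859778-40859798: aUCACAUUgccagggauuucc
rno-miR-23b-3p, chr17:1819405-1819425: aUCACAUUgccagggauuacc
rno-miR-27a-3p, chr19:40859614-40859634: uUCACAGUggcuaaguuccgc
rno-miR-27b-3p, chr17:1819163-1819183: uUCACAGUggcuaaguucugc
rno-miR-24-3p, chr19:40859481-40859502 and chr17:1818672-1818693: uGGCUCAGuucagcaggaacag
rno-miR-24-2-5p, chr19:40859517-40859538: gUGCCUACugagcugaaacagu

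The miR-23 pair shares the seed UCACAUU and the miR-27 pair the seed UCACAGU, and each of these seeds is found in 2 of 693 mature rat entries of that table. The seed GGCUCAG of miR-24-3p is found in 1 entry. Counted from the 5′ end, the miR-23 pair differs by U19A (from miR-23a-3p to miR-23b-3p) and the miR-27 pair by C19U (from miR-27a-3p to miR-27b-3p), 1 of 21 bases in each pair. A read that ends before base 19 therefore matches both forms of a pair. How such reads were assigned is not stated, and each a to b comparison given here is uncertain to that extent.

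The chromosome 17 cluster spans 814 bases (chr17:1818669-1819482) and holds Mir24-1, Mir27b and Mir23b. The chromosome 19 cluster spans 389 bases (chr19:40859455-40859843) and holds Mir24-2, Mir27a and Mir23a. By their names, 4 of the 9 belong to the chromosome 19 cluster (miR-23a-3p, miR-23a, miR-27a-3p and miR-24-2-5p) and 4 to the chromosome 17 cluster (miR-23b-3p, miR-23b, miR-27b-3p and miR-27b). miR-24-3p is made by both. Its hairpins show why, since the 3p strand is the same in both, and only the 5p strand names its locus (mature strands in capitals).
Mir24-1, chr17:1818669-1818736: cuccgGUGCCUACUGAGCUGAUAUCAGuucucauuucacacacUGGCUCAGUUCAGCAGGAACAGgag
Mir24-2, chr19:40859455-40859562: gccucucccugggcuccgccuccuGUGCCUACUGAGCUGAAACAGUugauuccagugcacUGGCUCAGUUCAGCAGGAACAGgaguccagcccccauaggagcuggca

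Values were deposited as log2(CPM + 1), where CPM is counts per 1e6 miRNA reads of the library, and all levels below are on that scale. The arms are 21 or 22 bases long, so that levels of different miRNA are set side by side with no correction for length. Adaptors were ligated and the libraries amplified, and how evenly this was done for different sequences was not measured. Levels of different names are thus compared as reads, not as amounts in the tissue. Depths, from whole reads worked back out of the low values, were 126279 to 879244 reads in the heart, 355221 to 2224069 in the kidney and 126700 to 379444 in the liver. The summed heart muscle miRNA (7 names, with miR-1, miR-133, miR-208a and miR-499) lay at 14.7 to 16.9 in 34 hearts and at no more than 9.96 in kidney and liver. The summed miR-122 names, which mark liver cells, lay at 13.8 to 14.4 in the liver and at no more than 8.19 elsewhere. The kidney epithelium list (11 names) did not set the kidney apart from the liver, at 17.2 to 17.6 and 17.7 to 17.8.

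Rat 307, a heated rat of the 48 h group, stood apart in both of its libraries. The library labelled heart of rat 307 had heart muscle miRNA at 8.34, with miR-208a at 3.49 and miR-1-3p at 2.62, none of the 7 names at 0, and endothelial miR-126 names summed at 15.4 against 12.99 to 14.80 in the other hearts. It thus went against its label in the markers that define heart muscle. Its kidney epithelium names summed to 17.09, above the 15.37 to 16.44 of the 34 other hearts and near the 17.2 to 17.6 of the other kidneys. That sum came mostly from miR-30a-5p, at 16.03, and miR-30a. Its miR-192-5p was at 8.89 and its miR-429 at 11.79, against 12.32 and 11.93 in the kidney of rat 307. Its miR-200b-3p, miR-200a-3p and miR-200a were at 10.67, 9.84 and 9.16, against 11.87, 9.38 and 9.77 in that kidney. Its smooth muscle names (4, of miR-143 and miR-145) summed to 17.69. This lay within the 16.20 to 18.44 of the other hearts and above the other kidneys, at no more than 15.71. Which tissue this library holds was not tested. The root mean square distance of rat 307 from the rest of its condition was 3.20 in the kidney and 2.96 in the heart, against 1.44 for the next library. Values at 48 h are given with and without this rat where the results turn on them.

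In control libraries miR-27b-3p had by far the most reads of the 9 in each tissue. Its control level ran from 13.12 to 15.02 in the hearts (median 14.24, n = 17), from 13.87 to 14.28 in the kidneys (14.15, n = 14) and from 13.58 to 14.01 in the livers (13.87, n = 7). Its rank among 185 names was 10 for heart, 11 for kidney and 15 for liver, and it made up a median of 1.94%, 1.82% and 1.49% of all reads. Among the reads of the 9 names alone its share was 80.1%, 81.5% and 89.8%. No other name of the 9 overlapped with it in any tissue.

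Its near twin miR-27a-3p was the second in heart and kidney, at medians of 10.62 (9.36 to 11.09) and 10.22 (9.76 to 10.42). In the heart the other 7 names followed closely, from miR-23a-3p at 9.53 down to miR-24-2-5p at 8.34, and their ranges overlapped from each to the next. In the kidney miR-23a-3p (9.21), miR-23b-3p (9.15), miR-27b (9.03) and miR-24-3p (8.83) lay together within their spread, and miR-24-2-5p was the lowest, with a median of 7.44 (6.81 to 7.78). The highest control value of miR-24-2-5p in the kidney overlapped with miR-23a, which ran from 7.70 to 8.18.

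The liver had another order. There miR-27b (9.22) and miR-27a-3p (9.06) lay together, well above miR-23a-3p (7.10), miR-24-3p (7.08) and miR-23b-3p (7.02), and miR-23a was the lowest at 5.53. In the liver the lower names rested on few reads, 13 to 40 for miR-23a-3p, 13 to 49 for miR-23b-3p, 17 to 42 for miR-24-3p and 4 to 24 for miR-23a per library, against 1924 to 4637 for miR-27b-3p. These are reads of PCR products, and the small numbers limit the precision of each liver value.

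**Figure D1:**
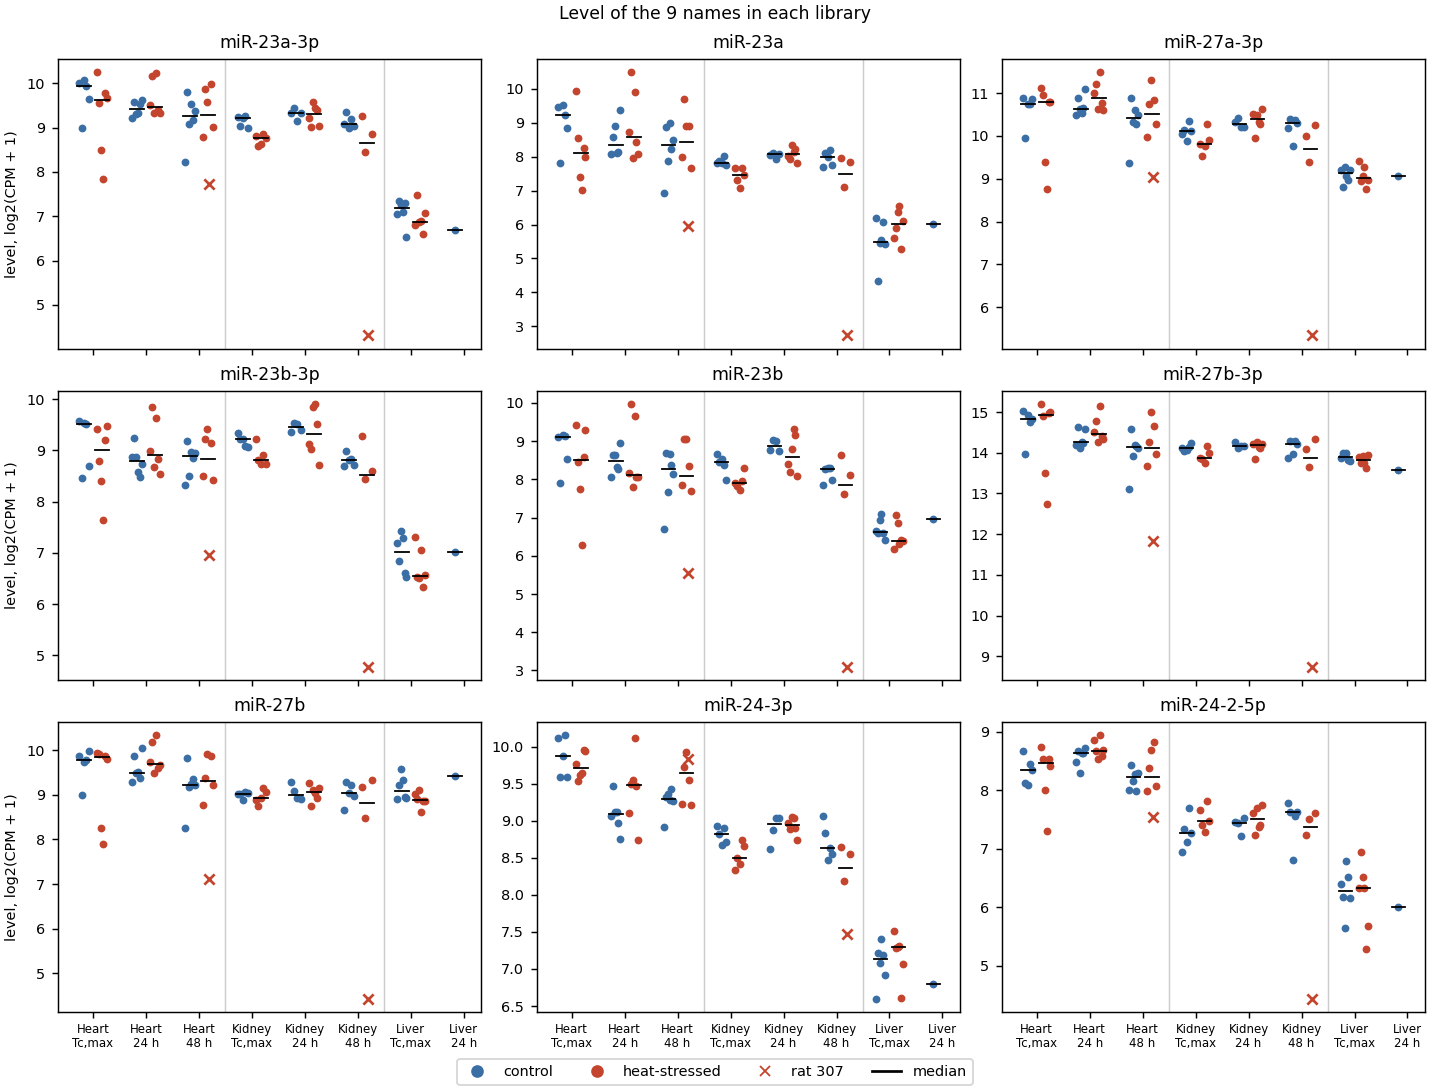
Level of each of the 9 names on the log2(CPM + 1) scale in every library, by tissue and time, with controls in blue, heated rats in red, rat 307 as a cross and the median of each group as a line. miR-27b-3p lies near 14 in all tissues, and the crosses of rat 307 in the kidney at 48 h lie far below the other libraries (8.74 for miR-27b-3p).

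In controls killed at the Tc,max time, the miR-23 and miR-24 names were lower in the liver than in heart and kidney, while the miR-27b names did not pass the test. Of the 9 names 7 were higher in the heart than in the liver and 6 higher in the kidney than in the liver, and 0 were lower. Among all names tested, 34.6% of 179 were higher and 30.2% lower in heart against liver, and 31.8% of 176 were higher and 26.1% lower in kidney against liver. The median difference over the 9 was 2.06 for heart minus liver, beside 0.17 over all names, and 1.68 for kidney minus liver, beside 0.34. These differences were tested with limma against a fold-change cutoff with Benjamini-Hochberg adjustment over all names, as were all called differences below.

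miR-24-3p showed the clearest step. Its values in control hearts were 10.11, 9.59, 9.87, 10.15 and 9.59, in control kidneys 8.93, 8.82, 8.67, 8.90 and 8.71, and in the 6 control livers 6.60 to 7.40 with a median of 7.13. The 3 tissues did not overlap. miR-24-3p was 6.94-fold higher in heart than in liver (log2 difference 2.80, SE 0.18, limma adjusted p = 1.18e-20) and 3.34-fold higher in kidney than in liver (1.74, SE 0.18, adjusted p = 6.33e-11). It was also 2.08-fold higher in heart than in kidney (1.06, SE 0.18, adjusted p = 0.000277). miR-24-2-5p, at 5.64 to 6.80 in the livers (median 6.28), was higher in heart by 2.06 (SE 0.29, limma adjusted p = 1.62e-07) and in kidney by 0.99 (SE 0.29, adjusted p = 0.0221). The kidney difference was lost with median-ratio scaling (0.60, adjusted p = 0.127) and without the kidney of rat 293 or the liver of rat 291 (adjusted p = 0.0639 and 0.0643).

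The miR-23 pair was also low in the liver. miR-23a-3p lay at 10.004, 8.99, 10.07, 9.93 and 9.66 in the control hearts, at 9.24, 9.04, 9.22, 9.26 and 8.999 in the control kidneys, and at 6.54 to 7.35 in the control livers (median 7.18). Each heart and each kidney was thus above each liver, whereas heart and kidney overlapped. miR-23a-3p was 6.18-fold higher in heart than in liver (log2 difference 2.63, SE 0.40, limma adjusted p = 4.01e-07) and 4.15-fold higher in kidney than in liver (2.05, SE 0.40, adjusted p = 8.25e-05).

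miR-23b-3p lay at 9.57, 8.46, 9.52, 9.51 and 8.69 in the control hearts, at 9.34, 9.21, 9.21, 9.09 and 9.06 in the control kidneys, and at 6.54 to 7.42 in the livers (median 7.02). Heart and kidney again overlapped and the liver stood below both. The difference was 2.17 for heart minus liver (SE 0.38, limma adjusted p = 1.14e-05) and 2.20 for kidney minus liver (SE 0.38, adjusted p = 1.05e-05). The names without an arm, miR-23a and miR-23b, were higher in heart than in liver by 3.47 and 2.05 and in kidney than in liver by 2.35 and 1.68, and all 4 of these passed.

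For miR-27 only the arm of the a locus passed this test, in heart against liver. The arms were compared with each other as a ratio within libraries, given below. miR-27a-3p lay at 10.89, 9.96, 10.74, 10.75 and 10.87 in the control hearts, at 10.04, 10.14, 9.89, 10.36 and 10.13 in the control kidneys and at 8.81 to 9.27 in the livers (median 9.13). Both tissues lay wholly above the liver. The heart minus liver difference of 1.56 passed (SE 0.40, limma adjusted p = 0.00265), and the kidney minus liver difference of 1.02 did not (SE 0.40, adjusted p = 0.0704). The latter passed without the libraries of rat 307 in the shared estimate of the spread (limma adjusted p = 0.00569). It also passed with the rat as a block, in a separate fit of only the 5 rats with both tissues (1.05, limma adjusted p = 0.000281).

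miR-27b-3p lay at 15.02, 13.96, 14.93, 14.76 and 14.84 in the control hearts, at 14.13, 14.05, 14.08, 14.15 and 14.25 in the control kidneys and at 13.80 to 14.01 in the livers (median 13.90). As deposited, each kidney lay above each liver, by a small step, and 1 heart lay among the livers. With median-ratio scaling the kidney minus liver difference turned to -0.17 (limma adjusted p = 0.824). Its differences of 0.80 for heart minus liver (SE 0.45, limma adjusted p = 0.211) and 0.23 for kidney minus liver (SE 0.45, adjusted p = 0.792) did not pass. Without rat 307 the heart minus liver difference, of the same size, passed (limma adjusted p = 0.0370). It also passed with the rat as a block, in a separate fit of only the 5 rats with both tissues (0.82, limma adjusted p = 0.0217). The armless miR-27b differed by 0.51 and -0.15, and neither passed.

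**Figure D2:**
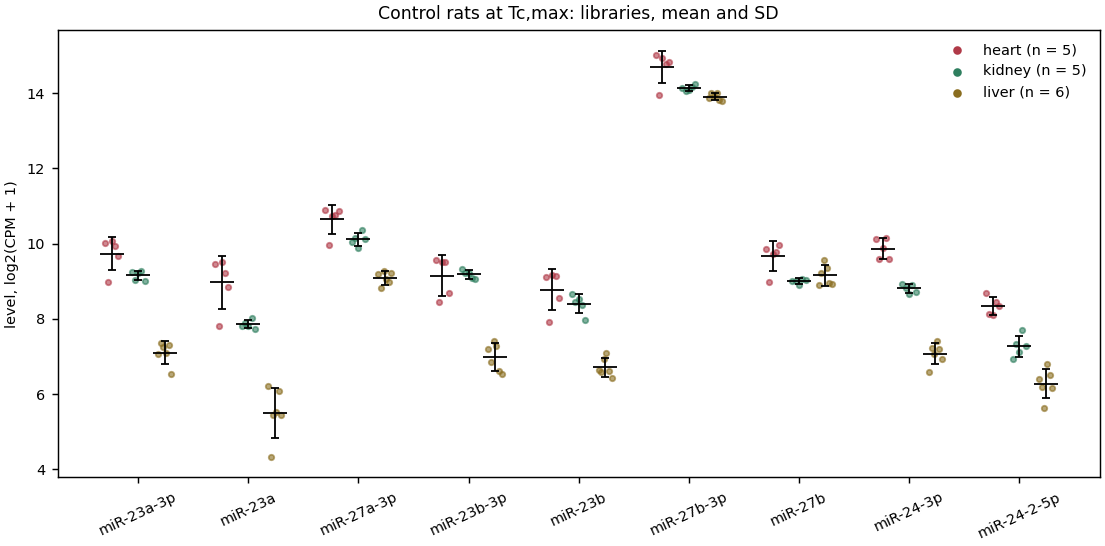
Level of the 9 names in control libraries at the Tc,max time, with 5 hearts, 5 kidneys and 6 livers as points and the mean with its SD, on the log2(CPM + 1) scale. The liver lies below heart and kidney for the miR-23 and miR-24 names, by 2.80 below the heart for miR-24-3p. For miR-27b-3p the differences are smaller, 0.80 for heart minus liver and 0.23 for kidney minus liver.

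Between heart and kidney the names of miR-24 were those that passed. At Tc,max, 2 of 9 names were higher in the heart, miR-24-3p (above) and miR-24-2-5p, and 0 were lower, while 18.5% of 184 names were higher and 21.7% lower. miR-24-2-5p, the arm that names the chromosome 19 locus, lay at 8.68, 8.12, 8.09, 8.44 and 8.34 in the hearts and at 6.94, 7.34, 7.11, 7.70 and 7.27 in the kidneys. The hearts lay wholly above the kidneys, by 1.06 (SE 0.30, limma adjusted p = 0.0245, or 0.0601 without the heart of rat 288 and 0.0600 without the kidney of rat 289).

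The miR-24 names were also compared between heart and kidney at the later control times. At 24 h miR-24-2-5p was 8.30 to 8.73 in 6 hearts (median 8.64) and 7.45, 7.44, 7.22 and 7.52 in 4 kidneys, with a difference of 1.17 (SE 0.31, limma adjusted p = 0.0115). miR-24-3p lay at 8.75 to 9.47 in those hearts (median 9.09) and at 8.62, 8.88, 9.04 and 9.04 in those kidneys. These overlapped, with a difference of 0.19 (SE 0.19, adjusted p = 0.885), so that only 1 of 9 names passed, beside 19% higher and 22.3% lower of 184 names. At 48 h 0 of 9 passed, beside 17.9% higher and 26.6% lower. There the differences were 0.71 for miR-24-2-5p (SE 0.29, limma adjusted p = 0.166) and 0.55 for miR-24-3p (SE 0.18, adjusted p = 0.171), and both passed with no fold cutoff (adjusted p = 0.0324 and 0.00551). The mean of miR-24-3p in control hearts was 9.86 at Tc,max, 9.08 at 24 h and 9.26 at 48 h, while in control kidneys it was 8.81, 8.89 and 8.71. Whether the step itself changed with time was not tested.

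Ratios of names within a library do not depend on how the library is scaled, and they set reads of the clusters side by side. They do not give the output of the clusters, since the assignment of reads that match both forms is not stated. The log2 ratio of miR-23a-3p to miR-23b-3p in control hearts at Tc,max was 0.43, 0.53, 0.54, 0.42 and 0.97, and in control kidneys -0.10, -0.17, 0.01, 0.18 and -0.06. The heart held more reads of the chromosome 19 form in each library, and the kidney held about as many of both. The difference of 0.61 had an exact two-sided permutation p = 0.0079, the smallest that 5 against 5 allows, and an adjusted p = 0.048 over 24 planned ratio tests.

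At 24 h the ratio was 0.35 to 1.06 in 6 hearts and -0.01, -0.08, -0.36 and -0.06 in 4 kidneys, again with no overlap (difference 0.77, exact permutation p = 0.0048, adjusted p = 0.038). At 48 h the kidneys had 0.40, 0.37, 0.19, 0.37 and 0.31 and lay among the hearts, at -0.11 to 0.63. The difference was then 0.08 (exact permutation adjusted p = 0.743). In the control kidneys the mean of miR-23b-3p ran from 8.80 at 48 h to 9.44 at 24 h, a range of 0.64, whereas the means of miR-23a-3p had a range of 0.19.

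Against the liver, the log2 ratio of miR-23a-3p to miR-23b-3p differed by 0.46 in the heart (0.58 against 0.12, exact permutation p = 0.043, adjusted p = 0.130) and did not pass, and the pairs were not tested against each other. The log2 ratio of miR-27a-3p to the armless miR-27b was 0.98 ± 0.05 (SD, n = 5) in control hearts, 1.11 ± 0.12 (n = 5) in kidneys and -0.07 ± 0.31 (n = 6) in livers at Tc,max. Heart and kidney lay wholly above the liver, by 1.05 and 1.17 (exact permutation p = 0.0022 each, the smallest that 5 against 6 allows, adjusted p = 0.026 each). With the arm named, miR-27a-3p to miR-27b-3p was -4.06 ± 0.09 in the hearts, -4.02 ± 0.16 in the kidneys and -4.82 ± 0.23 in the livers. The differences of 0.76 and 0.80 to the liver had no overlap (exact permutation adjusted p = 0.019 each, over 36 ratio tests that were added later).

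Within a cluster the reads of the members were not in the same proportion in the 3 tissues. For the chromosome 17 cluster, median control ratios of miR-27b-3p to miR-23b-3p reads were 42.4 in heart, 31.7 in kidney and 104 in liver. For the chromosome 19 cluster, those of miR-27a-3p to miR-23a-3p were 2.16, 2.08 and 4.02. At Tc,max the log2 ratio of miR-27b-3p to miR-23b-3p was higher in the liver than in the heart by 1.37 and than in the kidney by 1.97, and that of miR-27a-3p to miR-23a-3p by 1.07 and 1.03. None of these 4 pairs of groups overlapped (exact permutation adjusted p from 0.019 to 0.021). Between heart and kidney, the chromosome 17 ratio was higher in the heart by 0.60 at Tc,max and 0.82 at 24 h (exact permutation adjusted p = 0.032 and 0.021) but differed by -0.10 at 48 h (adjusted p = 0.867). For the chromosome 19 ratio the heart was higher at 24 h by 0.29 (exact permutation adjusted p = 0.021), while at Tc,max and 48 h the differences of -0.04 and 0.05 did not pass.

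**Figure D3:**
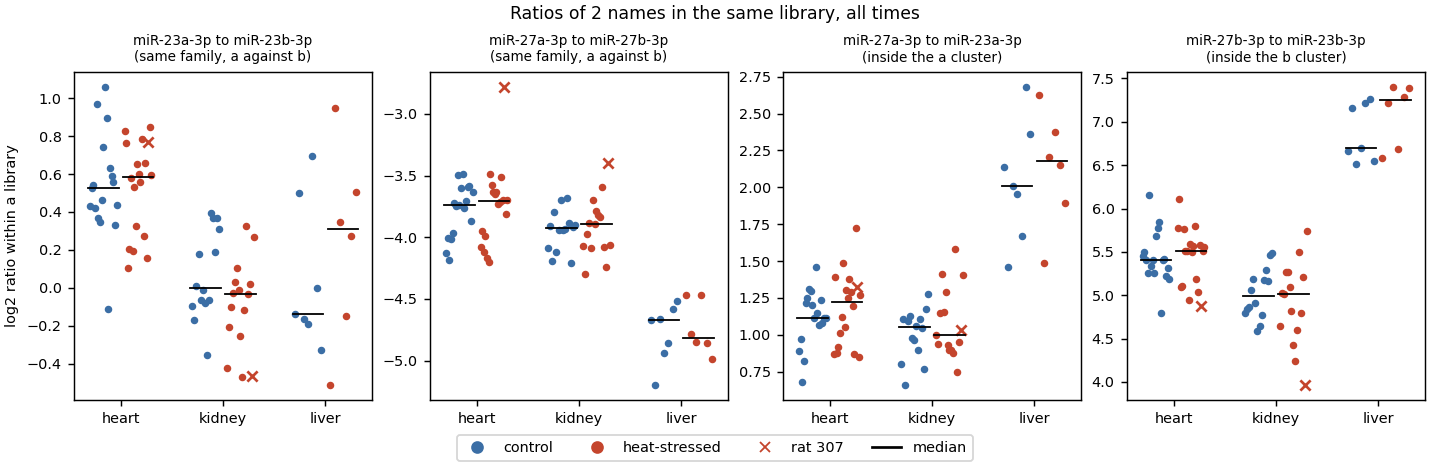
Log2 ratio of 2 names within each library, by tissue, for all 77 libraries, in 4 panels (miR-23a-3p to miR-23b-3p, miR-27a-3p to miR-27b-3p, miR-27a-3p to miR-23a-3p and miR-27b-3p to miR-23b-3p). In the panels of miR-27 to miR-23 most livers lie above hearts and kidneys (control medians as folds of 104, 42.4 and 31.7 for the chromosome 17 pair).

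After heat, none of the 9 names passed the test in any of the 7 comparisons of heated with control rats. The study tested the 48 h rats with lesions apart and lists miR-27a-3p as lower in their kidneys. That comparison could not be repeated here, since the labels do not tell these rats apart. The background was low too, since 2 of 163 names passed in the heart at 48 h (1.23%), and 0% in each of the other 6 comparisons. At an unadjusted p under 0.05 there were 3, 0 and 18 names in the heart at Tc,max, 24 h and 48 h, 0, 0 and 29 in the kidney and 2 in the liver. Of the 9 names, 4 were among those 29 in the kidney at 48 h and 0 in the other comparisons. Exact permutation tests over all names called 0 names in every comparison, but in groups this small no name on its own could have passed them after adjustment.

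In the heart the 9 names moved little relative to their spread. At Tc,max their log2 changes ran from -0.78 to -0.08 (median -0.34, beside -0.20 over all names). miR-23a-3p, for one, lay at 7.84 to 10.25 in 6 heated hearts (median 9.62) and at 8.99 to 10.07 in the 5 controls, so that the heated hearts spread around all of the controls, with a change of -0.46 (SE 0.36, limma adjusted p = 0.999). At 24 h the changes ran from 0.13 to 0.40 (median 0.24, all names 0.08). At 48 h they ran from -0.19 to 0.32 (median -0.05, all names 0.16) and without rat 307 from 0.14 to 0.40 (median 0.27, all names 0.17).

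Rat 307 set the sign of miR-27b-3p in the heart at 48 h. Controls lay at 13.12 to 14.59 (median 14.14, n = 6) and heated rats at 11.83 to 14.99 (median 14.12, n = 6), with 11.83 that of rat 307. The groups overlapped, and the change of -0.12 (SE 0.39, limma adjusted p = 0.999) became 0.30 without rat 307 (adjusted p = 0.998). miR-24-3p was not low in that library. The heated hearts had 9.23, 9.73, 9.93, 9.83, 9.56 and 9.22, with 9.83 that of rat 307, and the controls 8.92 to 9.43 (median 9.30). Its change was 0.32 (SE 0.18, adjusted p = 0.999), and 0.27 without rat 307 (adjusted p = 0.998).

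In the kidney at Tc,max 8 of 9 names had lower means in heated rats, with changes from -0.45 to 0.25 (median -0.28, all names -0.08), and none passed. miR-23a-3p was 8.81, 8.60, 8.63, 8.87 and 8.76 in the heated kidneys and 9.24, 9.04, 9.22, 9.26 and 8.999 in the controls. The heated libraries lay wholly below the controls, by 0.42 (SE 0.52, limma adjusted p = 0.999). The armless miR-23a was 7.67, 7.31, 7.09, 7.67 and 7.46 in heated and 7.82, 7.88, 7.81, 8.02 and 7.74 in control kidneys, also with no overlap and a change of -0.42 (SE 0.56, limma adjusted p = 0.999). Among all 175 names 19 (10.9%) lay wholly below the controls in this comparison, beside 2 of the 9. The exact permutation p of each was 0.0079, the smallest that 5 against 5 allows, and 0.0514 after adjustment over the 175 names.

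The spread used for these kidney tests included the 48 h library of rat 307. With its libraries left out and no fold cutoff, a setting chosen after the data were seen, miR-23a-3p and miR-23a passed (limma adjusted p = 0.0274 and 0.0453), as did 30 of 175 names. Depth moved with the groups here. The heated kidneys had 355221 to 1247747 reads and the controls 680596 to 1329684, and 4 of 5 heated libraries were below every control. Summed endothelial miR-126 names lay at 12.75 to 13.14 in the heated and 13.27 to 13.53 in the control kidneys, and summed white cell names at 10.02 to 10.38 and 10.44 to 10.99. The other marker lists overlapped between the groups. Smooth muscle names lay at 15.01 to 15.71 in the heated (median 15.32) and 14.70 to 15.55 in the control kidneys (14.81). Kidney epithelium names lay at 17.32 to 17.47 and 17.43 to 17.59. The part of depth and of these markers in the result was not tested. miR-24-3p changed by -0.28 (SE 0.17, adjusted p = 0.999), miR-27b-3p by -0.20 (SE 0.59, adjusted p = 0.999) and miR-24-2-5p by 0.25 (SE 0.37, adjusted p = 0.999), and heated and control libraries overlapped in all 3.

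In the kidney at 24 h the changes ran from -0.23 to 0.10 (median -0.01, all names -0.03). At 48 h they were large and negative, from -1.53 to -0.50 (median -1.27, all names -0.43), and rested on 1 rat. miR-27b-3p in heated kidneys was 14.08, 13.64, 8.74 and 14.33 for rats 305, 306, 307 and 309, while the controls had 13.87, 14.28, 13.97, 14.28 and 14.21. The 227 reads of miR-27b-3p in rat 307 stood in a library of 532473 reads, and at least 17519 were found in each of the other 3. Its change was -1.42 (SE 0.62, limma adjusted p = 0.260). For miR-23a-3p the heated kidneys had 9.26, 8.45, 4.31 and 8.85 in the same order, and the change was -1.41 (SE 0.55, adjusted p = 0.260).

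miR-27a-3p was low in the same library, at 10.003, 9.40, 5.34 and 10.26 against controls of 10.19, 10.40, 9.76, 10.37 and 10.31, with a change of -1.45 (SE 0.56, limma adjusted p = 0.260). miR-24-3p was less far off, at 8.65, 8.19, 7.47 and 8.55 against 9.06, 8.84, 8.47, 8.64 and 8.55, with a change of -0.50 (SE 0.17, adjusted p = 0.379). Without rat 307 the changes of the 9 ran from -0.32 to -0.01 (median -0.10, all names -0.01), with 0 at an unadjusted p under 0.05. In the kidney of rat 307 the endothelial miR-126 names summed to 12.05 against 12.5 to 13.9 in the other kidneys. The kidney epithelium names summed to 16.3 against 17.2 to 17.6, and the white cell names to 7.71 against 9.41 to 10.99. The red cell name was at 1.53 against 5.67 to 8.46. The smooth muscle names were not low, at 15.05 against 14.40 to 15.71. The part of these markers in the result was not tested.

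In the liver at Tc,max the changes ran from -0.27 to 0.46 (median -0.10, all names -0.07). None passed, and miR-27b-3p lay within 13.62 to 13.95 in heated (median 13.81) and 13.80 to 14.01 in control livers. With all libraries kept, none of the 35 ratio comparisons of heated with control rats passed after adjustment. The lowest p was that of miR-23a-3p to miR-23b-3p in the kidney at 48 h, where heated rats had -0.03, 0.02, -0.46 and 0.27 and controls 0.19 to 0.40, a difference of -0.38 (exact permutation p = 0.016, adjusted p = 0.076) that was -0.24 without rat 307 (adjusted p = 0.130).

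**Figure D4:**
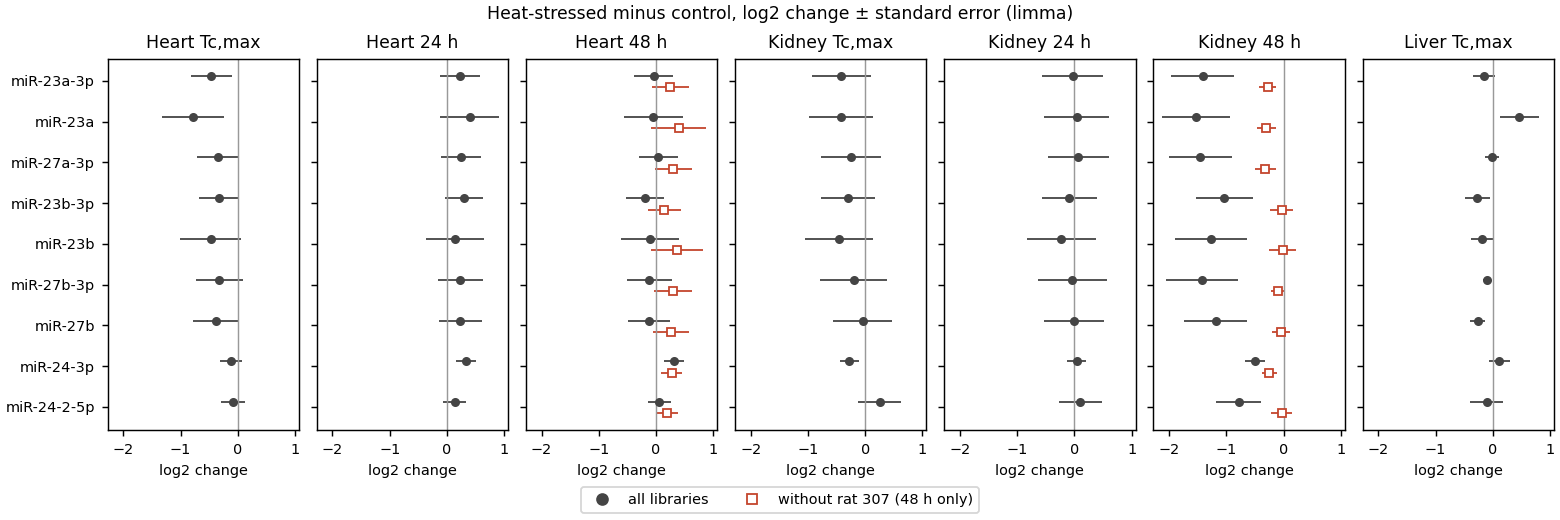
Log2 change of heated minus control rats with its SE for the 9 names in the 7 comparisons, with open squares for the 48 h values without rat 307. The kidney values at 48 h run from -1.53 to -0.50 with rat 307 and lie close to 0 without it (median -0.10).

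The change after heat was also compared between times and tissues, with limma and no fold cutoff. Between 48 h and Tc,max, 0 of 9 names differed in the heart, beside 2.45% of 163 names, and 0 of 9 in the kidney, beside 0% of 175 (12 names at an unadjusted p under 0.05). Without rat 307 none of the 9 passed in either tissue, beside 3 heart names (of 163) and 1 kidney name (of 175). Between kidney and heart at 48 h, 1 of 9 passed, beside 4.55% of 154 names. This was miR-24-3p, whose change was lower in the kidney (difference -0.82, SE 0.25, limma adjusted p = 0.0453), and not miR-27a-3p (-1.49, SE 0.59, adjusted p = 0.0860) or miR-27b-3p (-1.31, SE 0.66, adjusted p = 0.132). With the rat as a block 3 of 9 passed, among 40 names. Without rat 307 0 of 9 and 0 of 154 names passed, and the difference of miR-24-3p was -0.52 (adjusted p = 0.694).

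The 8 other names were then followed from library to library against miR-27b-3p, as deviations from the mean of their condition, without rat 307. In the heart (34 libraries) miR-27a-3p, made from the other chromosome, followed miR-27b-3p closely (Pearson r = 0.98, Spearman rho = 0.96, permutation adjusted p = 2.71e-05 for r). Without the 2 libraries farthest from the median r was 0.97. miR-23a-3p had r = 0.94 (rho = 0.90, r = 0.90 without the 2 farthest) and miR-23b-3p r = 0.85 (rho = 0.84, r = 0.80 without the 2 farthest), both with a permutation adjusted p = 2.71e-05. miR-24-3p stood apart with r = 0.48 (rho = 0.54, permutation adjusted p = 0.00116, r = 0.50 without the 2 farthest), and r = 0.27 when rat 307 was kept. In all, 19 such relations were tested together.

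These values share the library, its depth and its scaling. Over 154 other names in the same hearts r with miR-27b-3p had a median of 0.28 and quartiles of -0.29 and 0.79, and 68 of them were above miR-24-3p. A high r with miR-27b-3p was thus common in the heart. In the kidney (28 libraries) the median over 166 other names was 0.10. There miR-27a-3p again had a high r = 0.83 (rho = 0.79, permutation adjusted p = 0.000253, r = 0.75 without the 2 farthest), while miR-23a-3p had 0.53 (rho = 0.41, adjusted p = 0.0890, r = 0.45), miR-23b-3p 0.21 (rho = 0.11, adjusted p = 0.530, r = 0.18) and miR-24-3p 0.25 (rho = 0.22, adjusted p = 0.409, r = 0.07). With rat 307 all 8 names had r of 0.74 to 0.99 in the kidney, so that this pattern rested on that rat.

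Rat 307 also set miR-24-3p apart from the rest. The library labelled heart of rat 307 was set against the mean of its condition without it. It was at -2.48 for miR-27b-3p, -1.58 for miR-27a-3p and -1.72 for miR-23a-3p, but at 0.30 for miR-24-3p. Its kidney was at -5.28 for miR-27b-3p, -4.55 for miR-27a-3p and -0.99 for miR-24-3p. In both libraries the miR-24 strand that both clusters share was the one that deviated least of these. The library labelled heart went against its label in heart muscle markers, and which tissue it holds was not tested. Its deviations therefore cannot be read as those of a heart.

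**Figure D5:**
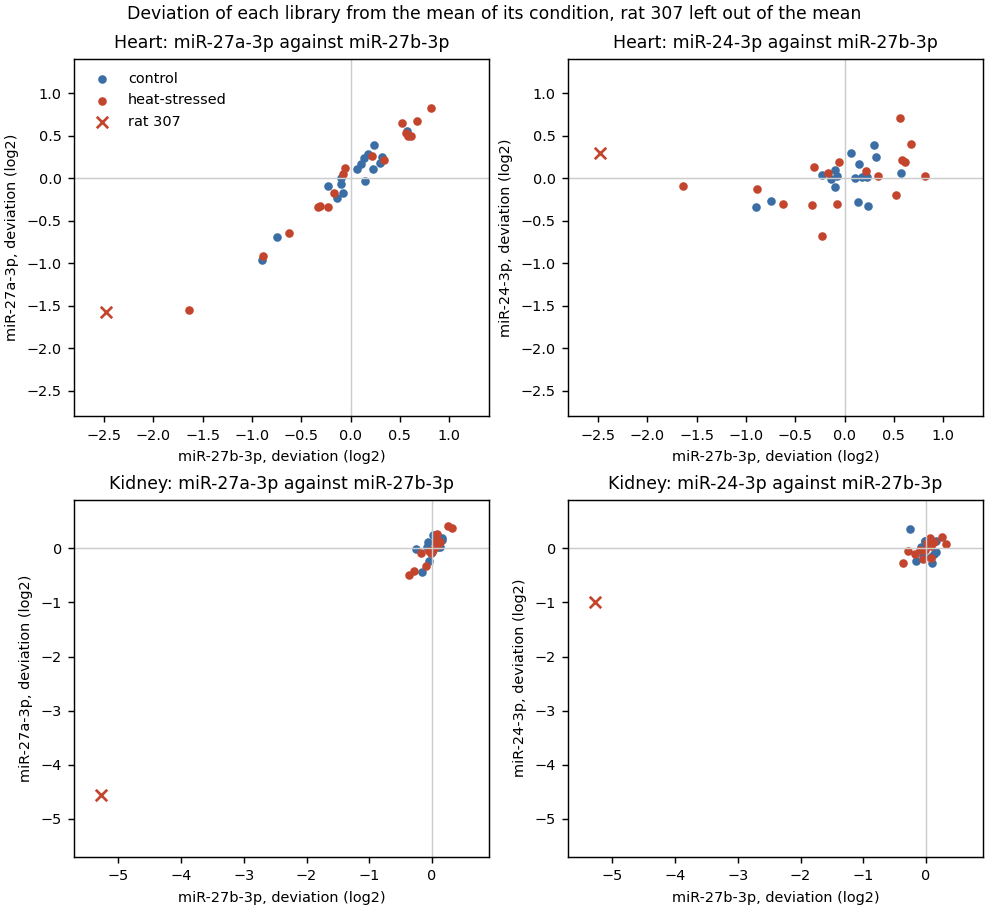
Deviation of miR-27a-3p and of miR-24-3p from the mean of their condition against that of miR-27b-3p, per library, in heart and kidney, with rat 307 marked and left out of the mean. miR-27a-3p follows miR-27b-3p along the whole range (r = 0.98 in the heart without rat 307). miR-24-3p deviates less than miR-27b-3p in rat 307 (0.30 in the library labelled heart and -0.99 in the kidney).

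The names with no arm were compared with the arm of the same miRNA. The armless miR-27b differed from miR-27b-3p by a median of -4.86 over hearts, -5.07 over kidneys and -4.83 over livers, so that it was not a sum that includes the arm. miR-23a differed from miR-23a-3p by -0.96, -1.26 and -1.21, and miR-23b from miR-23b-3p by -0.48, -0.71 and -0.17. The offset varied between hearts, from -1.76 to 0.32 for miR-23a. The offsets of miR-23a and miR-23b varied together in the heart (r = 0.55, rho = 0.55, permutation adjusted p = 0.00572, r = 0.43 without the 2 farthest libraries), with r = 0.12 in the kidney and -0.12 in the liver.

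The names most like each of the 9 were listed by Pearson r over 14 condition means, as a description. Of the 27 names so listed (3 for each), 10 were of the 9 themselves, with r from 0.90 to 0.98 over all 27. miR-23a-3p was most like miR-199a-3p (0.98), miR-181c-5p (0.98) and miR-23a (0.98), miR-24-3p was most like miR-145-5p (0.96) and miR-24-2-5p was most like miR-499-5p (0.96). miR-27b-3p was most like miR-27b (0.95), and then miR-195 (0.90). Without rat 307, 13 of the 27 were of the 9 (r from 0.83 to 0.99), and miR-23a-3p was most like miR-145-5p (0.99). Over the deviations of single libraries, 14 of 27 were of the 9, and miR-24-3p was the exception with no other member among its 3, which were miR-146b-5p (0.65), miR-31a-5p (0.62) and miR-31a (0.62). Without rat 307 these were 11 of 27 (r from 0.59 to 0.96), and the 3 of miR-24-3p were miR-31a (0.62), miR-31b (0.61) and miR-31a-5p (0.59).

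Other miRNA of endothelium and of heart muscle growth were taken for comparison. Of 11 tested endothelial and angiogenesis miRNA (10 in the liver), 0 passed in each of the 7 heat comparisons. Their median change was 0.24 in the heart at 48 h and -0.16 in the kidney at 48 h (0.44 and 0.07 without rat 307), beside -0.05 and -1.27 for the 9 names (0.27 and -0.10 without rat 307). Of the miRNA of heart muscle growth (18 tested for heart, 14 for kidney and 12 for liver), 1 passed. This was a name of miR-21, higher in the heart at 48 h, beside 1.23% of 163 names there. The other miR-21 names of the list did not pass. From mouse heart miR-21 is known for its rise in fibroblasts of the failing heart. In heart against liver, 4 of 11 endothelial names were higher and 2 lower, near the 34.6% higher and 30.2% lower of all 179 names. Of the 18 heart muscle growth names, which include heart muscle markers, 11 were higher and 3 lower. Of the 9 names these were 7 and 0.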

How the data were processed

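Small RNA was sequenced in 35 hearts, 29 kidneys and 13 livers. The authors trimmed the reads with cutadapt 2.6, dropped low-complexity reads with Prinseq, merged identical reads with the FASTX toolkit while keeping their number, took perfect matches to rat miRBase, and deposited log2(CPM + 1) values for 185 names. Low values of a library were whole multiples of the value of a single read (1865 of 1865 within 0.05, in 77 of 77 libraries), and the reads worked out from this gave the depth, the filter and the count-based alternatives. The number of unused value columns was 0. No 2 of the 172 replicate pairs were copies, with a smallest chi-square per degree of freedom of 3.73.

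All conditions of a tissue were fitted with limma (3.58.1, R 4.3.3) with a trend and treat against 1.25-fold, at a Benjamini-Hochberg FDR under 0.05. A name was tested if every library of some condition held 5 reads or more. Control tissues, and the kidney minus heart difference of the change, were compared in a single fit of all libraries, which share the spread. Tests of a difference between changes had no cutoff. Ratios were tested by exact two-sided permutation of the means, in families of 24 and of 36. Correlations used 100000 permutations, in a family of 19. Other software was Python (3.11.15) with scipy (1.17.1), numpy (2.4.6), matplotlib (3.10.9) and pandas (2.3.3). The fits were tested on simulated data.

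Alternatives were other scalings, log2(CPM + 5), no filter, no cutoff, only the compared groups, pooled controls and limma's voom on the whole reads. Others were the rat as a block, and each library or rat 307 left out. For control tissues the block was a separate fit of only the rats with both tissues, with its own spread. For kidney minus heart at 48 h it was a correlation within rats in the fit of all libraries. The family of 36, the exact tests over all names, and settings that leave out rat 307 in the tissue fit, or together with the cutoff, were chosen after seeing the data. The members and lists were chosen with earlier results of these data known. All members are named in each comparison, by range where not singly, with the 3 names most like each. Rat numbers pair tissues of the same animal. The median correlation of deviations was 0.0723 over 27 pairs of heart and kidney of the same rat and -0.0376 over 142 pairs of different rats. Separate rats were the replicates. Sequences and coordinates are from RefSeq (GRCr8). Lung libraries and later liver libraries, beyond a lone control, were not analysed here.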

Additional observations from a re-analysis of the deposited data

Results flagged for a closer look

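In groups of 4 to 10 libraries, the highest or lowest value of a name was set against the gap to its neighbour (Dixon's test), and 12 far values were found over the 9 names and 14 such groups, where chance gives about 1 in 20. Rat 307 gave 4 of these, in the kidney at 48 h after heat, with 4.31 for miR-23a-3p, 2.73 for miR-23a, 4.44 for miR-24-2-5p and 8.74 for miR-27b-3p. In the heart of control rat 289 at Tc,max 3 names were low together, miR-27a-3p at 9.96, miR-27b-3p at 13.96 and miR-27b at 8.99. The other far values were single names. In controls these were miR-24-3p at 8.92 in the heart of rat 311 at 48 h, miR-27b at 8.89 in the kidney of rat 292 at Tc,max, miR-24-2-5p at 6.81 in the kidney of rat 313 at 48 h and miR-23a-3p at 6.54 in the liver of rat 294 at Tc,max. In heated rats it was miR-27b-3p at 13.84 in the kidney of rat 298 at 24 h. The change of miR-24-3p at 48 h differed between kidney and heart by -0.82 in the test of the difference, which did not pass without rat 307.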

How the results depend on the processing

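None of the 9 names passed in a heat comparison under the settings run for the 63 values, with 1 exception, the 2 names in the kidney at Tc,max without rat 307 and with no cutoff, against 0. The smallest adjusted p was 0.260 and ran from 0.0723 with pooled controls to 0.998 without rat 307 in the other settings (limma). Between heart and kidney at 48 h, 2 names passed with median-ratio scaling and 2 with no cutoff, against 0, and at Tc,max 1 to 2 passed with single libraries left out. For kidney minus heart at 48 h, 0 names passed without rat 307 and 3 with the replicate block, against 1. With the block, miR-27b-3p also passed for heart minus liver (0.82, limma adjusted p = 0.0217) and miR-27a-3p for kidney minus liver (1.05). These fits held only the 5 rats with both tissues, so that pairing, libraries and spread changed together. Both differences also passed without rat 307. For kidney minus heart at 48 h, the block in the fit of all libraries brought miR-27a-3p among others past the threshold (-1.52, limma adjusted p = 0.0361). The block changed no other call given for single names. Median-ratio scaling turned miR-27b-3p in kidney minus liver from 0.23 to -0.17, took miR-24-2-5p there to 0.60 (adjusted p = 0.127), and shifted the 9 names by -0.29 for heart minus liver, -0.39 for kidney minus liver and 0.36 for the kidney at 48 h. miR-27b-3p in the heart at 48 h was 0.30 without rat 307, in both settings. With single libraries left out it ran from -0.34 to 0.30, and the median of the 9 in the kidney at 48 h from -1.86 without rat 305 to -0.10 without rat 307. The miR-23 ratio between heart and kidney at 24 h ran from 0.69 to 0.83 and did not pass without each 1 of the 4 kidneys, when fewer samples raise the smallest p. The heart to kidney ratios of miR-27a-3p to miR-23a-3p at 24 h and of miR-27b-3p to miR-23b-3p at Tc,max likewise lost the call without some single libraries. Among the heat ratios, miR-27a-3p to miR-27b in the kidney at Tc,max gained a call without the heated kidney of rat 284 (-0.26, exact permutation adjusted p = 0.038). In the liver, read numbers limit the miR-23 and miR-24 names. The cause of these shifts was not tested.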
